A study of Mus musculus with 12 samples.

Results

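The 42 genes described here encode the machinery that copies nuclear DNA in S phase and the enzymes that make its building blocks. They were taken as a fixed list of symbols, matched through Entrez identifiers, and all 42 were found among the 17090 genes of the counts table. RNA was sequenced from MTΔECad cells, a mouse breast cancer line with a mesenchymal character that is driven to become adipocytes in culture. The 6 groups are cells at 0 h, 6 h, day 3, day 5, day 7 and day 10, with 2 libraries each that came from 2 independent experiments. After overnight attachment the protocol gives BMP2, a bone morphogenetic protein, at 200 ng/ml for 3 days. It then gives BMP2 with 2 µM rosiglitazone, an agonist of the nuclear receptor PPARγ, for 4 days, and ends with 3 days of rosiglitazone without BMP2. All 12 libraries are of this 1 line and lie on this 1 course, and no library of untreated cells at a later time was analysed here. By this protocol rosiglitazone starts after the 3 days of BMP2 alone, so up to day 3 time and BMP2 cannot be told apart. After day 3, time, BMP2 and rosiglitazone cannot be told apart.

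The libraries held 12820802 to 17570366 counts, and levels are given as CPM, counts scaled to a common library size with edgeR's TMM factors. The 6 mesenchymal markers of the starting cells summed to 9190 to 9560 CPM at 0 h, and 4 epithelial markers to 719 to 733 CPM, of which Krt8, a keratin, gave 547 and 559 CPM. The 8 adipocyte markers had a summed level of 34500 to 35900 CPM at day 10, against 45.2 to 50.1 CPM at 0 h. Cdh1, which encodes E-cadherin, lay between 0.0692 and 1.09 CPM over the 12 libraries, and the labels do not say which exons the ΔECad name refers to. Of 6 leukocyte and macrophage markers 3 were in the table, with sums of 1.92 to 8.47 CPM, and Ptprc, the pan-leukocyte marker CD45, had at most 1 count in any library. The 4 endothelial markers summed to 0.239 to 3.98 CPM. Of the 4 skeletal muscle markers 1 was in the table, at 0.0734 to 1.17 CPM. RNA was extracted in bulk, so fewer cells with a transcript and less of it per cell cannot be told apart.

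Before a cell copies its genome, the origin recognition complex with Cdc6 and Cdt1 loads the ring-shaped MCM2-7 helicase onto DNA. Cdc45 and the GINS complex then turn the loaded rings into active helicases, the primase and polymerases synthesise both strands, and a clamp with its loader keeps the polymerases on the template. Ribonucleotide reductase and thymidylate synthase supply the deoxynucleotides. Many of these genes are known targets of the E2F transcription factors, and in cell culture models of fat formation, exit from the cell cycle is a known feature of terminal differentiation.

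Promoter windows were available from RefSeq (GRCm38.p6) for 35 of the 42 genes, and Mcm4, Gins1, Gins2, Gins4, Prim2, Pole and Rfc2 had none in that table. A window runs from 250 bases before an annotated start through the first 50 bases after it, and 4 of the 35 genes have more than 1. Each window was searched on both strands for the E2F-type words TTTCCCGC, TTTCGCGC, TTTGCCGC and TTTGGCGC, and for the 7-letter words that remain without the first T of each. An 8-letter word stood in a window of 13 of the 35 genes, or 37.1%, compared with 4.8% of the 10038 tested genes that have a window and 2.6% of all 27025 genes in the table. A 7-letter word stood in 22 of the 35, or 62.9%, compared with 19.6% and 10.9%. The word CCAAT on either strand, which can overlap an E2F-type word, stood in 22 of the 35 as well, compared with 43.4% and 41.1%. These are letter matches, not measured binding. The 250 bases before the start are shown for 5 genes whose transcripts were among the most reduced ones and whose windows hold different numbers of words, in the 5′ to 3′ direction of the gene, with the 7-letter words of either strand in capitals. Mcm5 (chr8:75109259-75109508, plus strand) has 3 such words and Mcm6 (chr1:128359706-128359955, minus strand) has 4. Orc1 (chr4:108579204-108579453, plus strand) and Rrm2 (chr12:24708004-24708253, plus strand) have 1 each, and Tk1 (chr11:117826015-117826264, minus strand) has none.
Mcm5: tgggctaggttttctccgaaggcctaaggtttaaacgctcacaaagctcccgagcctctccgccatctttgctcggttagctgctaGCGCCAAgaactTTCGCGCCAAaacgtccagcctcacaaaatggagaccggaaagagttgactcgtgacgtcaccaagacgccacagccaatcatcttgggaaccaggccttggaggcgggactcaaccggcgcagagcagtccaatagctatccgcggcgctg
Mcm6: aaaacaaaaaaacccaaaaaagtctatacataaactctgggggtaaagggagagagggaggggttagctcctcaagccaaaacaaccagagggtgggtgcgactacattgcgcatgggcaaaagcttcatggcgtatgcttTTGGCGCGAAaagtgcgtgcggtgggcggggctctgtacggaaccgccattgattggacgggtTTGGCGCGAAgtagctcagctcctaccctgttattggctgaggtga
Orc1: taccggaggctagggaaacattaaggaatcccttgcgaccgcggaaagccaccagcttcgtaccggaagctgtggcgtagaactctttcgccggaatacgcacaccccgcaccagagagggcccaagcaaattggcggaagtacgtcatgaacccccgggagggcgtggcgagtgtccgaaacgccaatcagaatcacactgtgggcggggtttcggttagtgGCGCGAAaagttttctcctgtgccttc
Rrm2: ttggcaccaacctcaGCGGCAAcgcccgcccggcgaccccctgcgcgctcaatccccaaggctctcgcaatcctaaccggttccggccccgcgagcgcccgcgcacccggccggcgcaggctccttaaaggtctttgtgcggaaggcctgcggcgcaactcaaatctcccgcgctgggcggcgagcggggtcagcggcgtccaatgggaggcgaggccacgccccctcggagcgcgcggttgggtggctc
Tk1: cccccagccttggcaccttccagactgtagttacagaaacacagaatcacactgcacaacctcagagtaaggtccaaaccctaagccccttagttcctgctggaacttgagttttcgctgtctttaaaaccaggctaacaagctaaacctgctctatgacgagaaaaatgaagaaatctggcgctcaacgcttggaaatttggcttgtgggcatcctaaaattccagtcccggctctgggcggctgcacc

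**Figure D1:**
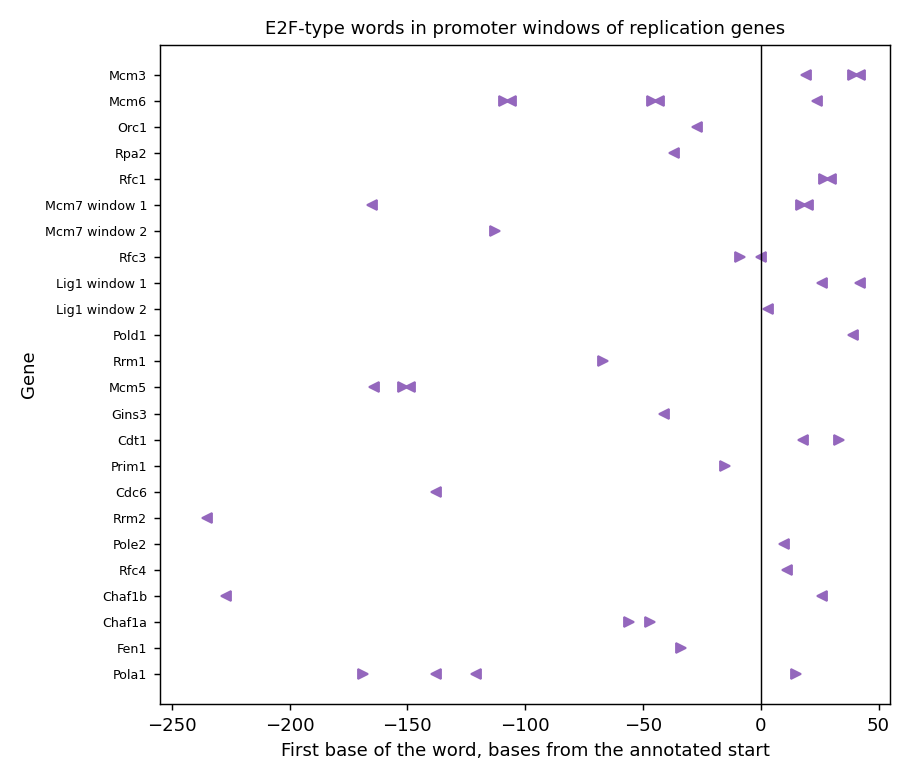
Position of each 7-letter E2F-type word in the promoter windows of the replication genes that have one, as the distance of its first base from the annotated start (x axis, bases; vertical line at 0). Triangles point right for the gene's own strand and left for the other strand; words lie on both sides of the start, and the 4 upstream words of Mcm6 form 2 overlapping pairs.

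At 0 h the genes were expressed over a wide range. Per kilobase of gene length, Rrm1 had the highest level at 138 CPM per kb, and Dna2 the lowest at 8.52 CPM per kb. All 6 MCM2-7 subunits lay close together, between 69.5 CPM per kb for Mcm7 and 84.6 CPM per kb for Mcm2. The GINS subunits, which form a complex with 1 copy of each, were less even, at 8.97 CPM per kb for Gins3, 18.2 for Gins1, 28.6 for Gins2 and 39.1 for Gins4. The 42 genes together took 0.530 ± 0.00124% of all counts (SD, n = 2).

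At 6 h the transcripts stood near their 0 h levels. By edgeR's quasi-likelihood test with Benjamini-Hochberg adjustment over 12740 genes, 0 of the 42 genes was called lower, against 0.212% of all genes tested, and 0 was called higher, against 0.534%. DESeq2 also called 0 in either direction. At an unadjusted p below 0.05 edgeR had 0 lower and 1 higher, and the share of all genes at that threshold was not counted. That gene was Rrm2, which encodes the small, S-phase subunit of ribonucleotide reductase. It had 237 and 227 CPM at 6 h, against 187 and 172 CPM at 0 h. Its log2 fold change was 0.37 ± 0.084 (SE; 95% interval 0.19 to 0.54; adjusted p = 0.0574). Rrm2 was called without the filter on low counts (adjusted p = 0.00309) and in a fit of the 4 libraries alone (adjusted p = 0.00505), while DESeq2 gave 0.0884 and leaving out 1 of its own 4 libraries gave 0.214 to 0.758. For the other 41 genes the 95% intervals of the log2 change lay between -0.38 and 0.41, so a change of 2-fold in either direction is outside them.

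By day 3 every one of the 42 genes was lower. The share of counts taken by the list was 0.0880 ± 0.00341% at day 3, against 0.530% at 0 h. All 42 were called lower and 0 higher by the same edgeR test, where 35% of all genes were called lower and 33.1% higher. Of the 42, 40 were at least 2-fold lower, a cut at which the share of all genes was not counted. At an unadjusted p below 0.05, and by DESeq2, the counts of genes called higher were 0 as well. The median log2 fold change of the list was -3.14, against 0.00 over all genes tested. The median gene stood at 11.3% of its 0 h level, with a range of 0.426% for Tk1 to 75.4% for Rfc1. The median log2 change was -4.51 for the 4 nucleotide synthesis genes, -3.58 for the 6 helicase subunits, -2.68 for the 8 polymerase and primase genes and -2.28 for the clamp with its loader. The 4 epithelial markers summed to 87.2 to 121 CPM at day 3, against 719 to 733 CPM at 0 h, and at days 5, 7 and 10 to 152 to 182, 200 to 217 and 258 to 284 CPM. The 6 mesenchymal markers summed to 10500 to 15200 CPM at day 3, against 9190 to 9560 CPM at 0 h, and at days 5, 7 and 10 to 4210 to 5050, 3570 to 3620 and 2950 to 3290 CPM. Single markers went in different directions. At day 3 against 0 h, 2 epithelial markers were called lower and 1 higher, and 2 mesenchymal markers lower and 3 higher. At day 10 these were 2 and 1, and 3 and 3, where 39.9% and 42.8% of all genes were called lower and higher. Among the epithelial markers, the highest log2 change against 0 h was 9.88 at day 7 and 9.45 at day 10. The part of these markers in the result was not tested.

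At days 7 and 10 most genes stood at or below their day 3 level, while at day 5, 22 were below it and 20 above. The list took 0.0668 ± 0.00136% of counts at day 5, 0.0454 ± 0.00159% at day 7 and 0.0429 ± 0.00162% at day 10. Against 0 h, 42 genes were lower at day 5 and 42 at day 7, where 37.6% and 39.4% of all genes were called lower, and 41 were lower at day 10, where 39.9% were. In these 3 comparisons 0 genes of the list were higher by edgeR, where 40.3%, 41.7% and 42.8% of all genes were called higher; DESeq2 and an unadjusted p below 0.05 gave 0 too. The median log2 fold change was -3.17 at day 5, -3.74 at day 7 and -3.88 at day 10, with medians over all genes of 0.06, 0.05 and 0.06. These comparisons share the 0 h libraries. The lowest group mean was at day 10 for 21 genes, at day 7 for 15, at day 3 for 5 and at day 5 for 1. All 42 genes passed the filter on low counts, and each also had at least 10 counts in 2 or more of the 8 libraries of days 3 to 10. Cdc6, Orc1, Tk1 and Chaf1b had under 10 counts in at least 1 of those libraries, so their late values are imprecise.

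**Figure D2:**
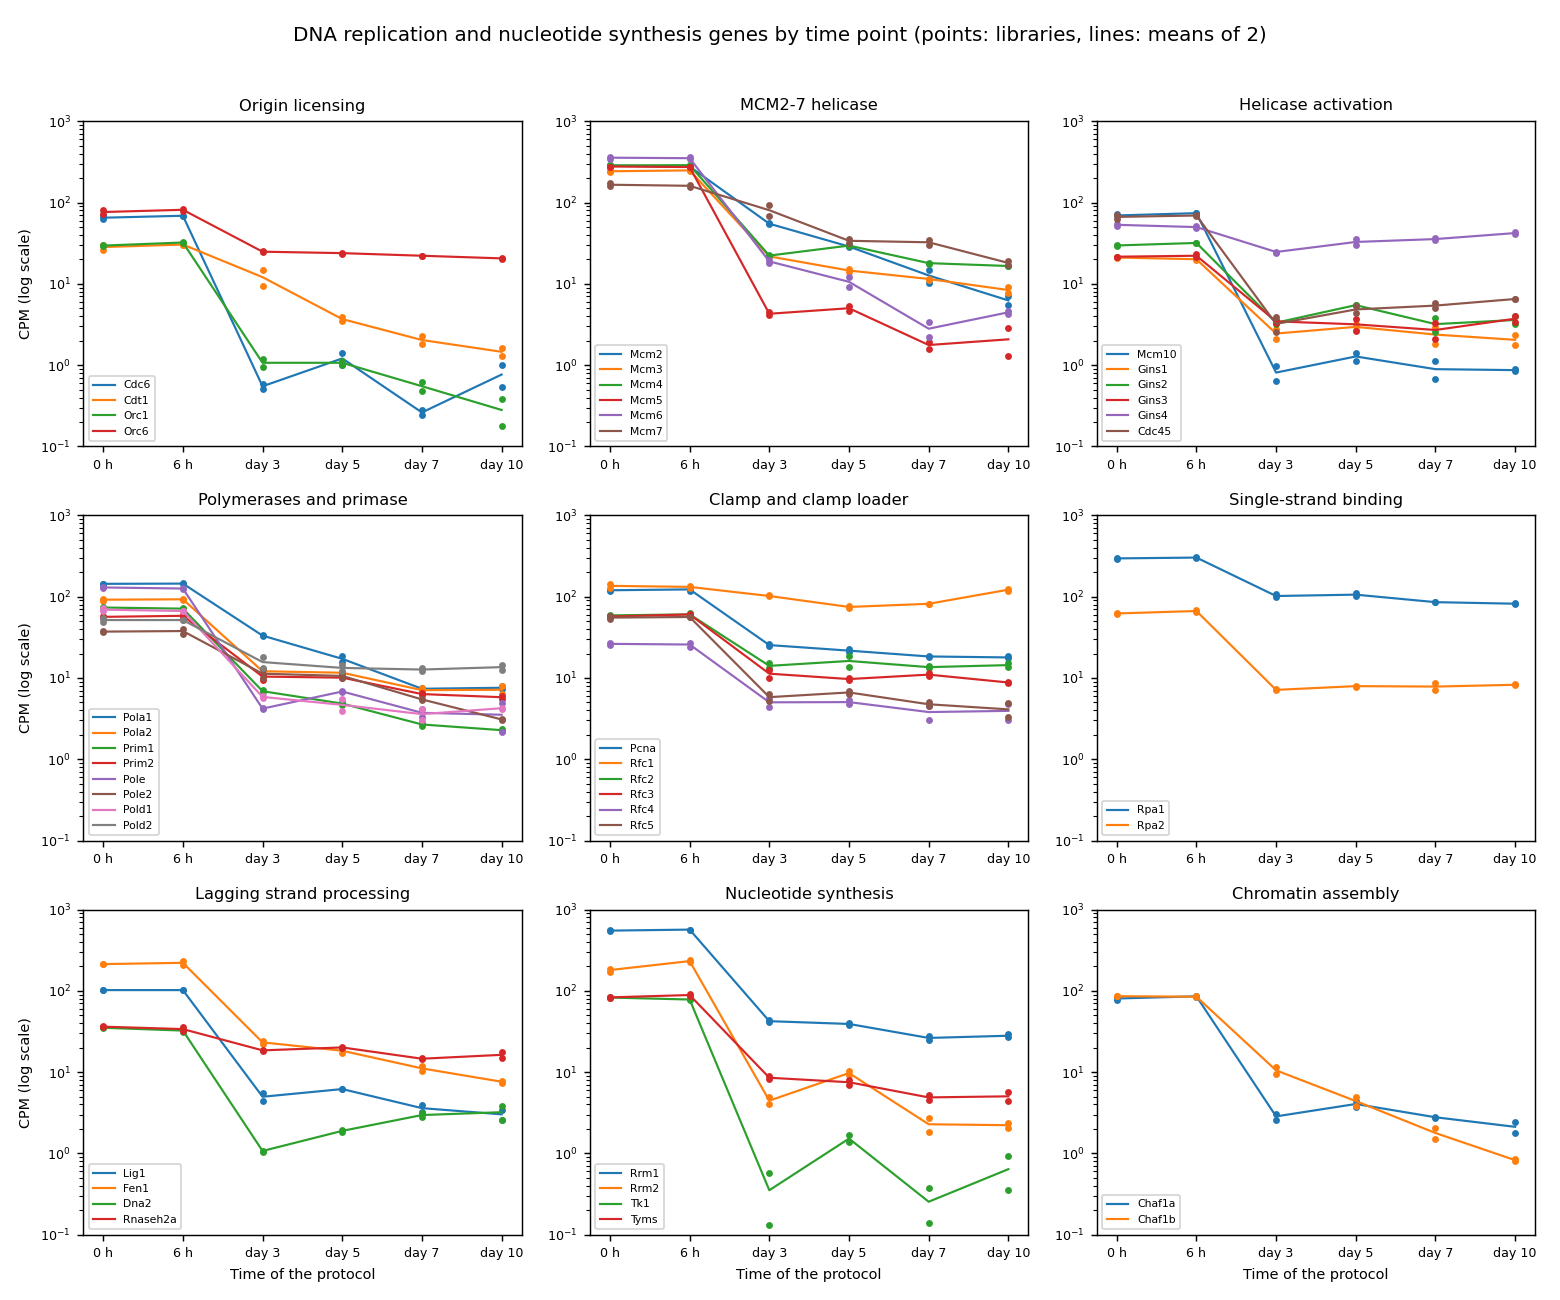
Level of each of the 42 genes (y axis, CPM, log scale) at each time of the protocol (x axis, equally spaced categories), in 9 panels by role, with 1 point per library and lines through the means of 2 libraries. Between 6 h and day 3 nearly all lines drop, and the lines of Rfc1, Gins4 and Rnaseh2a stay the flattest.

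Of the 4 origin licensing genes, Orc1 and Cdc6 were among those with the deepest falls. Orc1, the large ATPase subunit of the origin recognition complex, had 29.5 and 29.7 CPM at 0 h, 32.7 and 32.0 at 6 h, 0.953 and 1.18 at day 3, 1.12 and 1.01 at day 5, 0.485 and 0.617 at day 7, and 0.179 and 0.383 at day 10. At day 10 these were 2 and 5 counts in the libraries, against 402 and 480 counts at 0 h. Its log2 fold change at day 10 against 0 h was -6.64 ± 0.24 (SE; edgeR adjusted p = 6.50e-14). With so few counts at day 10, this SE is likely too small. Cdc6, the loading factor that works beside it, had 68.4 and 62.1 CPM at 0 h, 69.4 and 68.3 at 6 h, 0.508 and 0.592 at day 3, 0.994 and 1.43 at day 5, 0.277 and 0.247 at day 7, and 0.538 and 0.996 at day 10. The day 3 and later libraries of Cdc6 all lay far under the 0 h ones, and among themselves they did not follow a single direction. Cdt1, the partner of Cdc6 in loading the helicase, was reduced more slowly, with a log2 fold change against 0 h of -1.24 at day 3 and -4.29 at day 10. Orc6, the smallest subunit of the complex, had a log2 fold change of -1.62 at day 3 and -1.89 at day 10.

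The 6 MCM2-7 subunits started at like levels and ended apart. Mcm5 had 278 and 278 CPM at 0 h, 273 and 274 at 6 h, 4.45 and 4.14 at day 3, 4.66 and 5.37 at day 5, 1.94 and 1.60 at day 7, and 2.87 and 1.30 at day 10. Mcm7 had 172 and 161 CPM at 0 h, 155 and 166 at 6 h, 68.5 and 92.8 at day 3, 36.0 and 31.9 at day 5, 30.3 and 34.8 at day 7, and 19.1 and 17.1 at day 10. At day 3 both genes were below 0 h in both libraries, but Mcm5 stood at 1.55% and Mcm7 at 48.4% of the 0 h mean. Mcm2 had 283 and 287 CPM at 0 h, 275 and 282 at 6 h, 54.3 and 55.7 at day 3, 29.2 and 28.4 at day 5, 10.4 and 14.9 at day 7, and 7.08 and 5.44 at day 10, so that each later time lay under the one before it from 6 h on. Mcm6 had 348 and 366 CPM at 0 h, 341 and 363 at 6 h, 19.5 and 18.2 at day 3, 12.0 and 9.19 at day 5, 2.22 and 3.40 at day 7, and 4.66 and 4.29 at day 10, with its lowest libraries at day 7. At day 10 the log2 fold changes against 0 h were -3.21 ± 0.14 for Mcm7, -4.11 ± 0.075 for Mcm4, -4.85 ± 0.094 for Mcm3, -5.52 ± 0.13 for Mcm2, -6.32 ± 0.13 for Mcm6 and -7.09 ± 0.15 for Mcm5 (SE). Per kilobase, the levels at day 10 lay between 0.606 CPM per kb for Mcm5 and 7.55 CPM per kb for Mcm7. Mcm7 hosts the microRNAs Mir25 and Mir93 on its own strand and shares 247 exon bases with Ap4m1 on the other.

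Among the genes that turn the loaded helicase on, Gins4 had the smallest change at day 10. Gins4, also called Sld5, is a subunit of the GINS tetramer. It had 54.6 and 51.9 CPM at 0 h, 51.1 and 48.8 at 6 h, 24.3 and 25.0 at day 3, 35.7 and 30.0 at day 5, 36.4 and 34.7 at day 7, and 41.4 and 43.0 at day 10. Day 3 was its lowest time, and the day 10 libraries lay above the day 3 ones but still below both 0 h libraries, with a log2 fold change of -0.34 ± 0.094 against 0 h (SE; 95% interval -0.53 to -0.14; edgeR adjusted p = 0.00342). The other 3 GINS subunits had log2 fold changes at day 10 of -3.38 ± 0.21 for Gins1, -3.03 ± 0.16 for Gins2 and -2.53 ± 0.19 for Gins3. In GENCODE, Gins2 and Gse1, on opposite strands, have exons that share 2758 bases, more than the 1038 bases of the deposited Gins2 length. The counted Gins2 thus cannot hold all of them. Gse1 had 24.5 CPM at day 3, against 3.65 CPM at 0 h. The kit keeps strand, but whether counting used it is not given in the sources used here, so the late values of Gins2 are uncertain. In all, 12 of the 42 genes share exon bases with an opposite-strand gene of the table, and the same limit holds for them. They include Orc6, at 20.6 CPM at day 10 beside Vps35 at 310 CPM. Rnaseh2a, at 16.3 CPM beside Prdx2 at 283 CPM, is also among them. Mcm10, a factor needed to start unwinding, had 0.635 and 0.987 CPM at day 3, against 71.5 and 67.6 CPM at 0 h. Cdc45, the helicase cofactor, had 3.87 and 2.57 CPM at day 3, against 63.2 and 70.2 CPM at 0 h. Both had their lowest group mean at day 3.

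All 8 polymerase and primase genes were lower at each time from day 3 on. Pola1, the catalytic subunit of DNA polymerase α, had 144 and 145 CPM at 0 h, 145 and 146 at 6 h, 34.1 and 32.4 at day 3, 15.8 and 18.6 at day 5, 7.27 and 7.47 at day 7, and 7.88 and 7.28 at day 10. Pole, the catalytic subunit of the leading strand polymerase ε, had 129 and 131 CPM at 0 h, 126 and 127 at 6 h, 4.13 and 4.28 at day 3, 6.65 and 6.98 at day 5, 3.32 and 4.14 at day 7, and 2.15 and 4.90 at day 10. Pole was thus close to its final level at day 3, whereas Pola1 was reduced stepwise until day 7. At day 10 against 0 h the log2 fold changes of the 8 genes ran from -1.93 ± 0.14 for Pold2, an accessory subunit of the lagging strand polymerase δ, to -5.16 ± 0.18 for Pole. Pold1, the catalytic subunit that Pold2 binds, had -4.02 ± 0.15. The primase subunits had -5.01 ± 0.13 for Prim1, which makes the RNA primer, and -3.28 ± 0.12 for Prim2, while Pola2 and Pole2, accessory subunits of polymerases α and ε, had -3.67 ± 0.12 and -3.58 ± 0.16.

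Of the clamp and its loader, Rfc1 had the smallest change at each time from day 3 on. Rfc1 is the large subunit of replication factor C, the ATPase that opens the PCNA ring and sets it on DNA. It had 129 and 143 CPM at 0 h, 129 and 134 at 6 h, 101 and 104 at day 3, 73.6 and 76.0 at day 5, 82.4 and 81.3 at day 7, and 119 and 125 at day 10. The lowest libraries were those of day 5, and both day 10 libraries lay just under both 0 h libraries. At day 10 its log2 fold change against 0 h was -0.15 ± 0.070 (SE; 95% interval -0.30 to 0.00; edgeR adjusted p = 0.0532), and over all other settings and libraries left out the adjusted p lay between 0.0202, without the first 0 h library (log2 change -0.23), and 0.433, without the second (-0.07). The same interval for the 4 small subunits was -2.31 to -1.76 for Rfc2, -2.94 to -2.45 for Rfc3, -3.14 to -2.30 for Rfc4 and -4.05 to -3.42 for Rfc5, none of which overlaps that of Rfc1. Rfc2 and Rfc5 share 952 and 499 exon bases with the opposite-strand genes Lat2 and Wsb2. Pcna, the sliding clamp, had 118 and 121 CPM at 0 h, 116 and 129 at 6 h, 24.8 and 26.1 at day 3, 20.6 and 22.7 at day 5, 18.3 and 18.4 at day 7, and 17.4 and 18.4 at day 10. Its log2 fold change at day 10 was -2.74 ± 0.092, a smaller change than the list median of -3.88. The single-strand binding proteins Rpa1 and Rpa2, which coat unwound DNA in replication and repair, had -1.85 ± 0.070 and -2.91 ± 0.11.

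The genes that finish the lagging strand split in time. Fen1, the flap nuclease that removes RNA primers, had 214 and 211 CPM at 0 h, 235 and 207 at 6 h, 22.2 and 24.1 at day 3, 17.0 and 19.6 at day 5, 10.3 and 12.0 at day 7, and 7.79 and 7.43 at day 10. Dna2, a nuclease and helicase that trims long flaps, had 34.7 and 35.6 CPM at 0 h, 31.2 and 33.7 at 6 h, 1.08 and 1.05 at day 3, 1.93 and 1.85 at day 5, 2.77 and 3.15 at day 7, and 2.60 and 3.83 at day 10. Fen1 was thus lowest at day 10, and Dna2 at day 3, with all libraries of days 5 to 10 above both day 3 libraries. Lig1, the ligase that seals the fragments, had a log2 fold change of -4.36 at day 3 and -5.06 at day 10. Rnaseh2a, the catalytic subunit of RNase H2, which also acts on RNA in DNA outside replication, had -0.97 at day 3 and -1.16 at day 10.

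The 4 nucleotide synthesis genes held the deepest fall of the list at day 3. Tk1, the cytosolic thymidine kinase of the salvage pathway, had 81.6 and 83.6 CPM at 0 h, 78.0 and 78.3 at 6 h, 0.572 and 0.132 at day 3, 1.37 and 1.67 at day 5, 0.138 and 0.370 at day 7, and 0.358 and 0.919 at day 10. In counts these were 9 and 2 at day 3, 22 and 28 at day 5, 2 and 6 at day 7, and 4 and 12 at day 10, against 1111 and 1352 at 0 h. Its log2 fold change at day 3 was -7.83 (95% interval -8.33 to -7.33). With 9 and 2 counts at day 3, this interval is likely too narrow. Rrm2 had 4.89 and 4.01 CPM at day 3, 9.14 and 10.3 at day 5, 2.70 and 1.85 at day 7, and 2.06 and 2.37 at day 10, so its day 5 libraries stood above those of days 3, 7 and 10. Rrm1, the large subunit that pairs with Rrm2, had 558 and 541 CPM at 0 h, 567 and 565 at 6 h, 43.2 and 41.5 at day 3, 38.0 and 40.2 at day 5, 27.6 and 25.1 at day 7, and 26.9 and 29.0 at day 10. Per kilobase, Rrm1 had a level of 6.99 CPM per kb at day 10, against 138 CPM per kb at 0 h, and Rrm2 had 1.02 CPM per kb at day 10, against 82.4 CPM per kb at 0 h. Tyms, thymidylate synthase, had a log2 fold change of -3.28 at day 3 and -4.03 at day 10. A Tyms pseudogene in the table, Tyms-ps, had 0.288 CPM at day 10, against 4.59 CPM at 0 h, and reads could be split between the copies.

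The CAF-1 chaperone subunits, which place histones on new DNA, took different courses. Chaf1b, the middle subunit, had 85.7 and 86.2 CPM at 0 h, 83.7 and 85.3 at 6 h, 9.59 and 11.4 at day 3, 4.97 and 3.82 at day 5, 1.52 and 2.04 at day 7, and 0.806 and 0.842 at day 10. Chaf1a, the large subunit, had 77.2 and 83.5 CPM at 0 h, 87.1 and 84.0 at 6 h, 2.60 and 3.09 at day 3, 4.35 and 3.76 at day 5, 2.84 and 2.72 at day 7, and 1.79 and 2.45 at day 10. Chaf1b was at each later time under the one before from day 3 on, while Chaf1a was already near its final level at day 3. Chaf1a shares 2542 exon bases with Ubxn6 on the opposite strand, which had 62.6 CPM at day 5, against 53.1 CPM at day 3.

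**Figure D3:**
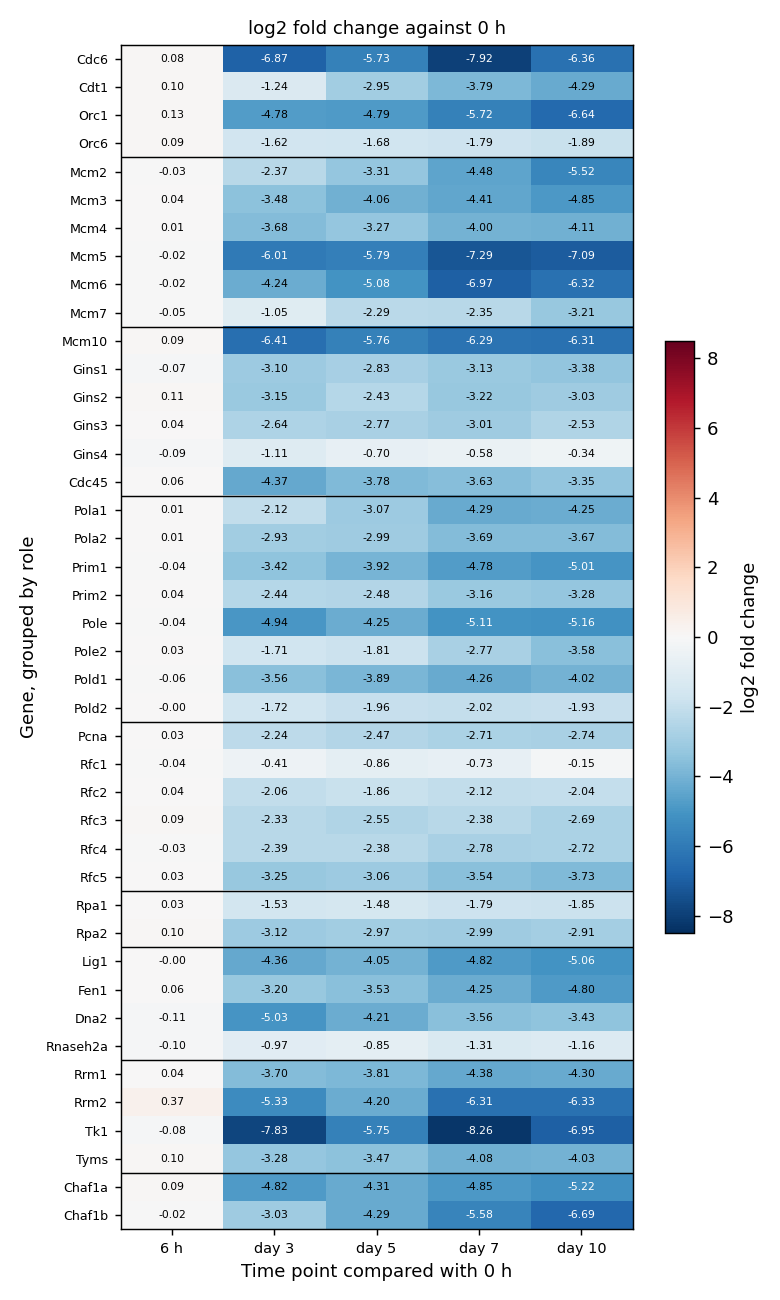
Log2 fold change of each of the 42 genes (rows, grouped by role) at 6 h, day 3, day 5, day 7 and day 10 against 0 h (columns), with the fitted value printed in each cell and the colour scale centred on 0. The 6 h column is near 0 throughout, with 0.37 for Rrm2 the highest, and the palest late cell is Rfc1 at day 10 with -0.15.

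Between day 3 and day 5, the interval in which rosiglitazone is added, the list split. By edgeR's test 10 genes were higher at day 5 and 11 lower, where 34% and 31% of all genes tested were called higher and lower, so the shares in the list were not above the background; the median log2 fold change was -0.02, against 0.01 over all genes. DESeq2 called 9 higher and 10 lower. Higher at day 5 were Mcm4, Cdc6, Gins2, Gins4, Cdc45, Pole, Rrm2, Tk1, Chaf1a and Dna2. Lower were Mcm2, Mcm3, Mcm6, Mcm7, Cdt1, Pola1, Prim1, Pcna, Rfc1, Fen1 and Chaf1b. Of the 6 helicase subunits 4 were lower and 1 higher, and of the 6 genes of helicase activation 3 were higher and 0 lower. Among these 3, Gins2 had a log2 change of 0.72, and its opposite-strand neighbour Gse1 had 0.64.

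Tk1 had the largest rise at this step, with a log2 fold change of 2.07 ± 0.44 (SE; 95% interval 1.13 to 3.01; edgeR adjusted p = 6.37e-04), and both day 5 libraries, at 22 and 28 counts, lay above both day 3 libraries, at 9 and 2. Afmid, which shares 83 exon bases with Tk1 on the opposite strand, had 4.76 CPM at day 5 and 3.08 CPM at day 3. Rrm2 rose by 1.13 ± 0.15 on the log2 scale (adjusted p = 3.72e-06). Cdc6 had 1.14 ± 0.34 from 16 and 24 counts at day 5, against 8 and 9 at day 3, and its adjusted p was 0.0587 without the first day 3 library and 0.133 without the second day 5 library. The largest falls were those of Cdt1 at -1.71 ± 0.20, Chaf1b at -1.26 ± 0.15 and Mcm7 at -1.25 ± 0.13, with adjusted p of 1.22e-06, 1.22e-06 and 8.97e-07. Cdt1 had 3.92 and 3.46 CPM at day 5, against 9.46 and 14.7 CPM at day 3, with no overlap of the libraries. Cdc45, Chaf1a, Dna2, Fen1 and Pcna also lost their calls when 1 library was left out, with adjusted p of at most 0.194, 0.159, 0.0626, 0.0804 and 0.174. The proliferation marker Mki67 had 28.0 and 31.5 CPM at day 5, against 14.4 and 7.96 CPM at day 3, a log2 change of 1.41 ± 0.24 (adjusted p = 6.82e-04), beside 988 and 1010 CPM at 0 h. Top2a, a topoisomerase of dividing cells, had 42.0 and 42.7 CPM at day 5, against 40.3 and 26.5 CPM at day 3 (adjusted p = 0.0787).

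**Figure D4:**
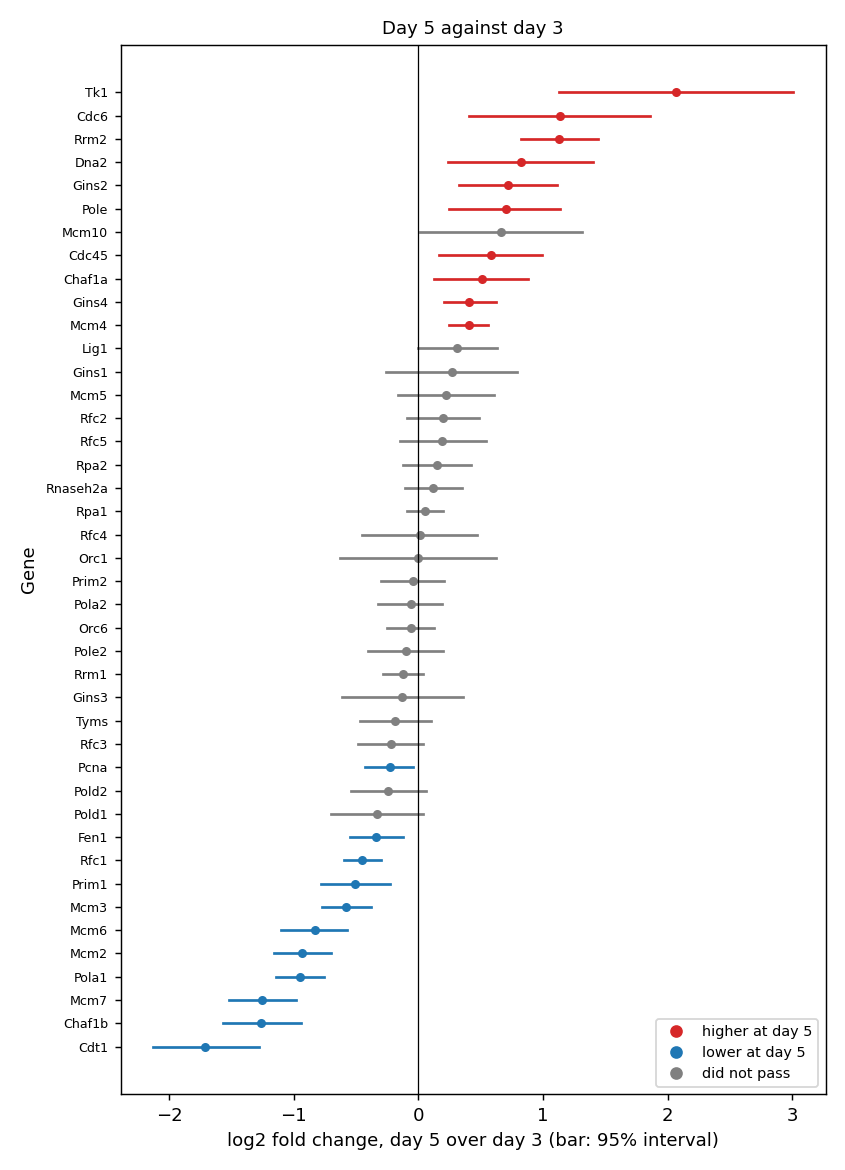
Log2 fold change of each of the 42 genes at day 5 against day 3 (x axis; bars are 95% intervals from the fit over 12 libraries), ordered by value, with genes called higher at day 5 in red, lower in blue and those that did not pass in grey. The values spread from -1.71 for Cdt1 to 2.07 for Tk1, with 10 genes called higher, 11 lower and 21 not called.

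Between day 5 and day 7 the calls were nearly all downward. At day 7, 25 genes were lower than at day 5, where 18.8% of all genes were called lower, and 1 was higher, where 19% were called higher; the median log2 fold change was -0.56, against -0.01 over all genes. All 4 nucleotide synthesis genes were lower, with -2.51 ± 0.48 for Tk1, -2.11 ± 0.17 for Rrm2, -0.57 ± 0.079 for Rrm1 and -0.62 ± 0.15 for Tyms. So were 5 of the 6 helicase subunits and 6 of the 8 polymerase and primase genes, with Mcm6 at -1.90 ± 0.17 and Pola1 at -1.22 ± 0.11. Dna2 was the gene called higher, at 0.65 ± 0.22 (adjusted p = 0.0297), and it lost that call under DESeq2 (adjusted p = 0.0650) and without any 1 of the day 5 or day 7 libraries (adjusted p up to 0.161). Mcm3, Cdt1, Gins2, Pole, Rfc5 and Chaf1a lost their calls of lower when 1 library was left out, with adjusted p of at most 0.0892, 0.143, 0.0704, 0.0585, 0.172 and 0.165. This comparison and the one before it share the day 5 libraries.

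Between day 7 and day 10 most genes did not pass the test. At day 10, 6 genes were lower than at day 7, where 13.2% of all genes were called lower, and 3 were higher, where 15.1% were; the median log2 fold change was -0.02, against 0.00. Lower were Mcm2 at -1.04 ± 0.16, Mcm3 at -0.44 ± 0.11, Mcm7 at -0.85 ± 0.15, Pole2 at -0.81 ± 0.20, Fen1 at -0.56 ± 0.14 and Chaf1b at -1.11 ± 0.31. Rfc1 was higher at 0.58 ± 0.071 (95% interval 0.43 to 0.73; adjusted p = 1.3e-05), with 119 and 125 CPM at day 10 and 82.4 and 81.3 CPM at day 7. Mcm6, at 0.65 ± 0.21, and Cdc6, at 1.56 ± 0.48, were also higher, but their adjusted p rose to 0.238 and 0.390 when 1 library was left out. For Cdc6 the day 10 libraries held 6 and 13 counts and the day 7 libraries 4 each. Mcm3, Fen1 and Chaf1b also lost their calls without 1 library, with adjusted p of at most 0.124, 0.0765 and 0.164.

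Other replication genes were taken as a list of 29 from outside the 42. At day 10 against 0 h, 23 were lower and 3 higher, where 39.9% and 42.8% of all genes were called so. Their median log2 change was -2.06. Clspn, a fork mediator of the checkpoint kinase Chk1, had 0.448 and 0.996 CPM at day 10, against 89.2 and 94.6 CPM at 0 h, a log2 change of -6.94 ± 0.22. Dbf4, the activator of the origin-firing kinase Cdc7, had -6.19 ± 0.11, and Chtf18, part of an alternative clamp loader, had -6.12 ± 0.29. The genes called higher were Pold4, a small subunit of polymerase δ, at 0.58 ± 0.091, Orc3 at 0.53 ± 0.080 and Pole4, a small subunit of polymerase ε, at 0.24 ± 0.097. The most abundant members of that list were Top1, a topoisomerase also used in transcription, at -0.53 ± 0.086, and Topbp1, a scaffold for origin firing and the checkpoint, at -3.39 ± 0.084.

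The origin recognition complex and 3 enzyme pairs show how genes with neighbouring functions stood beside the listed ones. At day 10 against 0 h the log2 change was -6.64 for Orc1 and -1.89 for Orc6, beside -1.85 ± 0.098 for Orc2, 0.53 for Orc3, -0.20 ± 0.085 for Orc4 (adjusted p = 0.0359) and 0.13 ± 0.11 for Orc5 (adjusted p = 0.261). Rrm2b, the small reductase subunit that works outside S phase and is induced by p53, had 49.5 and 46.6 CPM at day 10, against 22.0 and 19.6 CPM at 0 h, a rise of 1.21 ± 0.10 (adjusted p = 6.98e-09). Both day 10 libraries of Rrm2b lay above both of its 0 h libraries. Tk2, the mitochondrial thymidine kinase, had 32.3 and 29.6 CPM at day 10, against 11.9 and 12.8 CPM at 0 h, a rise of 1.32 ± 0.12 (adjusted p = 1.76e-08). The repair ligases Lig3 and Lig4 had -0.57 ± 0.081 and -0.22 ± 0.19 (adjusted p = 5.40e-06 and 0.276), beside -5.06 for Lig1. The differences in response between these genes were not tested.

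**Figure D5:**
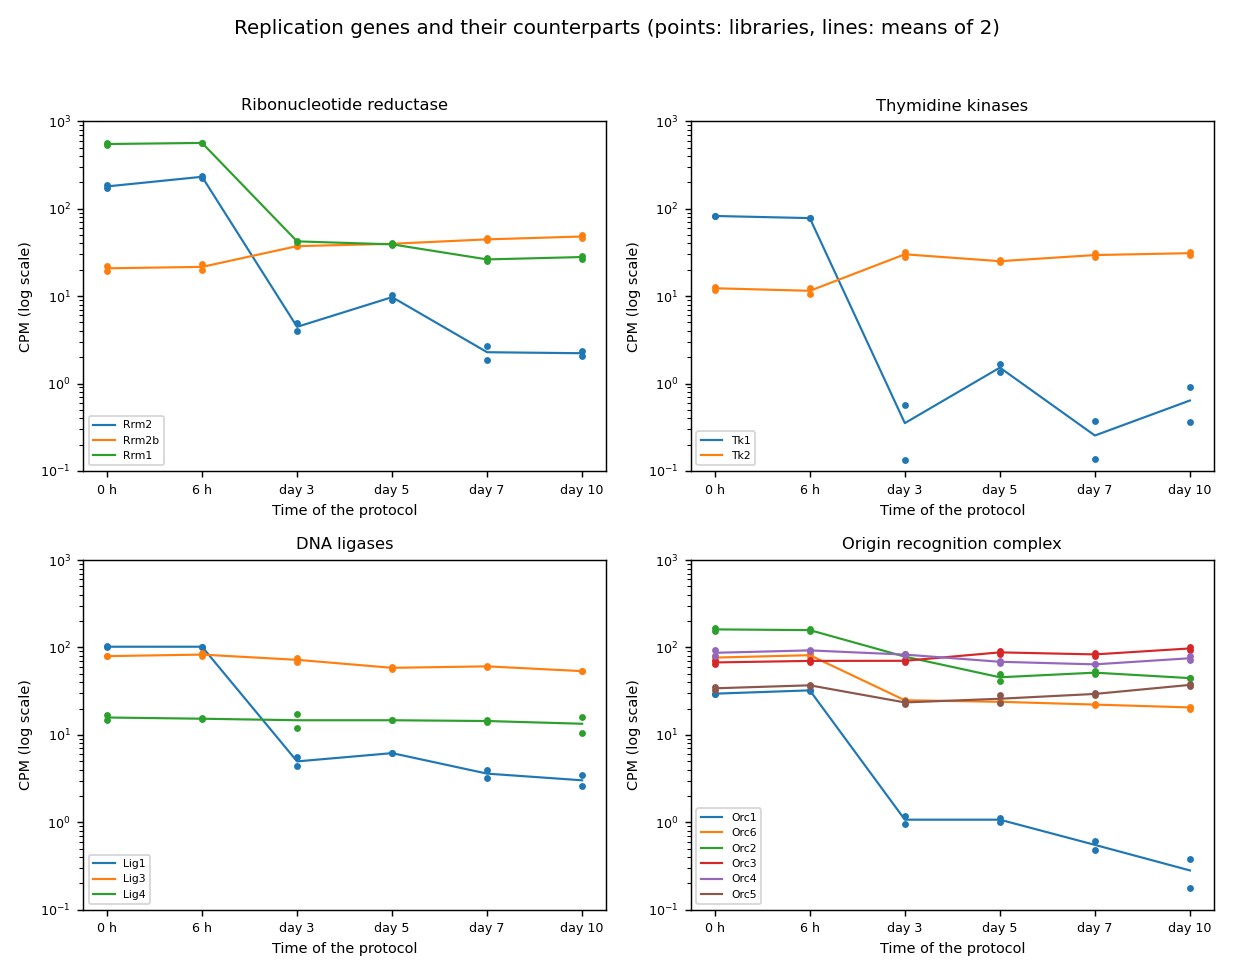
Level (y axis, CPM, log scale) by time of the protocol (x axis, equally spaced) of replication genes beside genes of neighbouring function, in panels for ribonucleotide reductase, thymidine kinases, DNA ligases and the origin recognition complex, with 1 point per library and lines through the means of 2. The lines of Rrm2b and Tk2 end above their 0 h level, those of Rrm2, Tk1, Lig1 and Orc1 far below it.

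Of 41 further genes of nucleotide supply, 40 passed the filter. Of these, 29 were lower and 9 higher at day 10 against 0 h, where 39.9% and 42.8% of all genes were called so. The median log2 change was -1.76. Dctd, the deaminase that feeds thymidylate synthesis, had 1.79 and 1.91 CPM at day 10, against 42.4 and 38.3 CPM at 0 h, a log2 change of -4.43 ± 0.17. Ctps, CTP synthase, had -3.47 ± 0.076. Uck1, a uridine-cytidine kinase, had 171 and 154 CPM at day 10, against 15.3 and 18.2 CPM at 0 h, a rise of 3.27 ± 0.14. Dguok, the mitochondrial deoxyguanosine kinase, rose by 2.17 ± 0.13, and Adssl1, an adenylosuccinate synthase known from muscle, by 2.05 ± 0.19. Paics and Atic, enzymes of purine synthesis and the most abundant of this list, had -1.23 ± 0.070 and -2.22 ± 0.080. Samhd1, which breaks down deoxynucleotides, had 0.04 ± 0.14 at day 10 (adjusted p = 0.767).

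In the family of the E2F and retinoblastoma genes, 11 of 13 were lower and 2 higher at day 10 against 0 h. Of all genes, 39.9% were called lower and 42.8% higher. The median log2 change of the family was -1.43. E2f8, an atypical member that represses transcription, had 0.0896 and 0.460 CPM at day 10, against 69.2 and 61.5 CPM at 0 h, a log2 change of -7.78 ± 0.25. E2f7, of the same kind, had -6.82 ± 0.28, and E2f2, an activator, had -3.67 ± 0.29. Rb1, the retinoblastoma protein that holds E2F in check, had 65.4 and 67.2 CPM at day 10, against a mean of 18.7 CPM at 0 h, a rise of 1.82 ± 0.13. Rbl2, its relative p130, rose by 1.27 ± 0.11. Tfdp1 and Tfdp2, the dimer partners of E2F proteins, had -2.18 ± 0.075 and -0.55 ± 0.089. Within the 35 genes with a promoter window, the median log2 change at day 10 was -4.55 in the 22 with a 7-letter E2F-type word, with a range of -7.09 to -0.15, and -3.43 in the 13 without one, with a range of -6.95 to -1.16. For the same 2 sets the medians at day 3 were -3.31 and -2.93. Split by the 8-letter words, the medians with and without one were -4.29 and -3.70 at day 10 and -3.48 and -3.16 at day 3. The ranges overlap over most of their length in each split, and these are descriptions without a test.

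Among 20 genes of repair and of other polymerases and ligases, 9 were lower and 5 higher at day 10 against 0 h. Over all genes, 39.9% were called lower and 42.8% higher, so the lower calls were near that share. The median log2 change of the 20 was -0.15. Polq, the polymerase of end joining through short homologies, had -5.93 ± 0.18, Polh and Polk, which copy past lesions, had -2.14 ± 0.095 and -1.79 ± 0.14, and Primpol, a primase-polymerase, had 1.93 ± 0.18. Polg2, the accessory subunit of the mitochondrial polymerase, had 1.18 ± 0.15, Rev3l, the catalytic subunit of polymerase ζ, 0.94 ± 0.12, and Parp1, a sensor of strand breaks, -1.49 ± 0.078. The median of this list was nearer to the 0.06 of all genes than that of the 42, at -3.88, and the difference between the lists was not tested.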

How the data were processed

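Poly-A RNA of 12 libraries was sequenced by the authors. The submitters' processing notes name the aligner STAR and the build mm10. The counting tool, and whether it used strand, is not given in the sources used here. Raw counts per gene with Entrez identifiers make up the deposited table, with, per the file headers, a gene length in bases. Symbols came from RefSeq (GRCm38.p6) for 17045 of 17090 genes. Exon overlaps came from all GENCODE transcripts, as the largest overlap between single exons, and the counting may have used other exons. The 42 genes, the other lists and the tests were chosen with earlier results of these data known.

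The model was edgeR 4.0.16 (R 4.3.3; TMM scaling, filterByExpr with a minimum count of 10, robust quasi-likelihood F test, prior count 0.125) fitted as 1 model of 6 time points with 6 residual degrees of freedom. Of the genes 12740 passed the filter and 4350 did not. P-values were adjusted over all genes tested by Benjamini-Hochberg, and calls were made at an adjusted p below 0.05. CPM used TMM-scaled library sizes, and CPM per kb divided by the deposited gene length. The edgeR SE was the absolute log2 change divided by the square root of the test's F statistic, and the 95% intervals were built from it. For large changes that end at few counts, such SEs and intervals are likely too small. Tk1, for example, had an SE of 0.24 at day 3 against 0 h but 0.44 at day 5 against day 3. Totals ranged from 12820802 to 17570366 counts. The 2 libraries of a time point came from separate experiments, correlated at 0.992 to 0.995, and differed by more than sampling noise (chi-square per degree of freedom 4.23 to 15.7). Precision for single genes is limited by 2 libraries per time point and, for 4 of the genes, by counts under 10 in late libraries. Other genes were named by rule: per list, the 3 largest falls and rises among called genes and the 2 most abundant; neighbouring enzymes were named for their function. 1 gene that the rule names is not reported here.

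On simulated counts for day 10 against 0 h with 12408 genes, the share of changed genes called was 77.6% at 1.5-fold, 98.5% at 2-fold and 100% at 4-fold, and 13 of 197 calls fell on genes left unchanged. The simulation gave every gene the same spread and changed only a small set of genes above a minimum mean count, at day 10 alone. In the real data 39.9% of genes were called lower and 42.8% higher at day 10, so these rates may not hold there or for genes with few counts. Alternatives were DESeq2 1.42.0, other scalings and filters, fits with replicate number as a block or with the 4 libraries of a comparison alone, and each library left out in turn.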

Additional observations from a re-analysis of the deposited data

How the results depend on the processing

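The 42 genes were lower at days 3, 5 and 7 than at 0 h under every alternative run and with any 1 library left out. At day 10 the number was 41 or 42, and Rfc1 was the gene that moved. The joint test over all time points called all 42 in each fit it was run in. In the reported fit it called 94.7% of all genes tested. At 6 h against 0 h, 1 gene was called higher without the filter on low counts, 1 with the replicate block and 1 in a fit of the 4 libraries, and 0 to 1 with a library left out. At day 7 against day 5, 0 genes were higher under DESeq2 and 0 in a fit of the 4 libraries, with 0 to 1 when a library was left out, against 1 as reported; 22 to 27 were lower under other settings and 21 to 25 with a library left out, against 25. At day 10 against day 7, 1 to 4 genes were higher and 4 to 6 lower with a library left out. At day 5 against day 3, 7 to 10 were higher and 9 to 13 lower. Of the values for single genes, 6289 kept their side of the threshold, 59 lost the call and 33 gained it. Of all 6381, 72 had another sign than reported, and 0 of these were called in either fit; the cause was not tested. The labels do not say that a replicate number marks the same experiment at each time, and over 15 pairs of time points the deviations of same-numbered libraries correlated at -0.0913 to 0.193, so the block was kept as an alternative. It added the calls of Rrm2 at 6 h (edgeR adjusted p = 0.039) and Rfc1 at day 10 (0.043) against 0 h and of Pcna at day 7 against day 5 (0.048), and changed no other call. With upper-quartile factors the median of all genes at day 3 against 0 h moved by 0.108 on the log2 scale.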

Other observations

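Recql4, a RecQ helicase with a part in replication initiation, and Asf1b, a histone chaperone that works with CAF-1, were named after their values were seen. Recql4 had 35.2 and 35.0 CPM at day 10, against 41.0 and 37.2 CPM at 0 h, a log2 change of -0.15 ± 0.13 (SE; edgeR adjusted p = 0.267). At day 3 it had 3.05 and 5.00 CPM, a log2 change against 0 h of -3.28 (adjusted p = 1.77e-11), so its day 10 libraries lay far above its day 3 libraries. Asf1b had 91.6 and 84.2 CPM at 0 h, 1.08 and 0.987 CPM at day 3 and 14.5 and 15.1 CPM at day 10, with log2 changes against 0 h of -6.40 at day 3 and -2.57 ± 0.14 at day 10.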
